A study of Rattus norvegicus with 6 samples.

Results

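Heat shock proteins are the molecular chaperones of the cytosol and the mitochondria. They hold, fold and refold other proteins, and when misfolded proteins accumulate, heat shock factor 1 binds heat shock elements in the promoters of a subset of them and drives a fast rise in their transcripts. Other chaperones of the same families are present at high levels in unstressed hepatocytes, the main cells of the liver, and change less. Of 10 chaperone genes named for study, 7 had at least 1 probe set annotated with their symbol alone, and these 7 genes were read by 11 of the 31099 probe sets on the array. The other 3, Hspa1b, Hspa8 and Hsp90aa1, appeared only on probe sets annotated with 2 symbols each, and are described apart. All 11 probe sets passed the filter on low signal. The stress-inducible genes measured were Hsph1, Dnajb1 and Hspb1. The constitutive ones were Dnaja1 and Hsp90ab1 in the cytosol and Hspd1 and Hspe1 in the mitochondria. The classes are textbook assignments, and Dnaja1, Hspd1 and Hspe1 are themselves known to respond to heat to some degree.

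The 6 samples were livers of rats made hypercholesterolemic by a fat-rich diet for 30 d, which all of them kept eating for a further 30 d. In that second period the probiotic group (3 samples) received Lactobacillus casei Zhang, a lactic acid bacterium, each day by gavage in 1 ml of saline. The high-fat group (3 samples) received 1 ml of saline alone and serves as the control. No strain, sex or age is given in the sources used here, no group on ordinary chow was analysed here, and whether each sample came from its own rat is not stated, so that p-values measure the spread between these samples. Transcripts were measured on 1-colour arrays, and precision is limited by their number. All 6 hepatocyte markers with a probe set passed the filter on low signal, with Alb (albumin) between 61305.8 and 76711.8 in probiotic and between 55435 and 126788.1 in high-fat livers. In whole liver, fewer cells of a type and less RNA per cell cannot be told apart.

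The promoter windows of the members are shown for the element that heat shock factor 1 is known to bind, an array of short inverted repeats. RefSeq windows of assembly GRCr8, 250 bases before to 50 after the start of a gene, were at hand for 8 of the 10 genes. Matches of 3 alternating units (GAANNTTCNNGAA or its reverse complement TTCNNGAANNTTC, so that both strands were searched) stood in 5 of these 8 windows, those of Hsph1, Dnaja1, Hspa8, Hspd1 and Hspe1. The share among all 33469 rat windows was 0.798%. The 2-unit forms (GAANNTTC or TTCNNGAA, each its own reverse complement, and contained in every 3-unit match) stood in 7 of the 8 windows, against 15.9% of all windows. In Dnajb1 and Hspb1 these were the longest matches, and the Hsp90ab1 window held none. The window of Hspa1a, a gene outside the 10, held none either. Of the genes with 3-unit matches, Hsph1 is classed as stress-inducible and Dnaja1, Hspa8, Hspd1 and Hspe1 as constitutive. Among the windows at hand, the 3-unit matches thus did not follow the classes. Hspa1b and Hsp90aa1, both classed as stress-inducible, had no window, so the classes were not compared in full. Hspd1 and Hspe1 share the same matched bases, and imperfect forms of the element were not searched. Stretches around the matches are printed 5′ to 3′ on the strand of the gene, with the matches in capitals.
Hsph1 (chr12:10427298-10427357, + strand): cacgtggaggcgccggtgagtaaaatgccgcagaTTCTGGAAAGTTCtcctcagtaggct
Hspe1 (chr9:64084256-64084285, + strand): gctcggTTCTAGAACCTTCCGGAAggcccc
Dnaja1 (chr5:60638404-60638433, + strand): ggccgggcgGAACTTTCCAGAAcgctcggt
Dnajb1 (chr19:41431142-41431201, - strand): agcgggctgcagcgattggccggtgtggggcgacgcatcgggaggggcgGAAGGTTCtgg
Hspb1 (chr12:26432392-26432451, - strand): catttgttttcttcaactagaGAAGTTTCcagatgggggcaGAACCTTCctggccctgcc

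The Hsph1 match begins 36 bases before the start site, the Hspe1 match 65 bases before it, and the Dnaja1 match 9 bases after it. Hspd1 and Hspe1, which encode the mitochondrial chaperonin and its lid, lie head to head, and their windows overlapped over 211 bases on opposite strands. The 18 bases in capitals in the Hspe1 stretch, chr9:64084262-64084279, are therefore also the match in the Hspd1 window. The Hspd1 window starts from a site 295 bases inside the span listed for that gene, and that of Hsp90ab1 from a site 174 bases inside. A match is a run of letters and no measurement of binding, and absence from these windows says nothing about other positions.

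The comparison of probiotic with high-fat livers asks which liver transcripts differ after L. casei Zhang was given on the fat-rich diet. No heat shock protein gene passed the test, and the brightest probe set of each of the 7 genes had its highest normalized signal on the same array, that of probiotic sample 2. On that array the brightest probe sets of the 3 stress-inducible genes stood further above their own means than those of the constitutive genes. Of the 11 member probe sets, 0 passed an adjusted p of 0.05 in limma, against 0.0215% of the 18625 probe sets tested. At an unadjusted p under 0.05 there were also 0, against 6.85% of all tested, and in 0 of the 11 were the groups free of overlap, against 12.7% of all. The sign of the difference was positive in 8 of 11, against 50.5% of all tested, and in 4 of 11 without probiotic sample 2, against 51.9%. The median difference of the brightest probe sets of the 7 genes, probiotic minus high-fat on the log2 scale, was 0.49 (all tested, 0.00416), and -0.14 without probiotic sample 2 (all tested, 0.0178).

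Among the stress-inducible genes, Hsph1 encodes the large HSP70-type protein HSP105, a nucleotide exchange factor that also holds unfolded protein. Its brightest probe set, 1388898_at, had intensities of 1446, 8382 and 3082.5 in probiotic samples 1, 2 and 3, against 1275, 3659 and 2659 in high-fat samples 1, 2 and 3. Probiotic sample 2 was the highest and the other 5 overlapped freely between the groups. On the normalized log2 scale Hsph1 averaged 11.72 ± 1.27 in probiotic and 11.19 ± 0.78 in high-fat livers (SD, n = 3 each), a difference of 0.52 with a 95% interval from -0.79 to 1.83 (limma, adjusted p = 0.846). Without probiotic sample 2 the difference was -0.14. A second, dimmer Hsph1 probe set, 1385620_at, had intensities of 405.7, 1545.8 and 770 in the probiotic samples, against 448.5, 1456.9 and 922.7 in the high-fat samples. There probiotic sample 2 and high-fat sample 2 were nearly level, and the log2 difference was -0.12.

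Dnajb1, the HSP40 cochaperone that loads substrates onto HSP70, had intensities of 1256, 8588 and 1838.5 in the probiotic samples, against 1079, 1514.5 and 1456 in the high-fat samples (probe set 1388722_at). Probiotic sample 2 was 4.67 times as bright as the next array, and of the remaining probiotic samples, sample 1 lay within the range of the high-fat samples and sample 3 above it. The normalized log2 means were 11.43 ± 1.47 in probiotic and 10.40 ± 0.27 in high-fat livers (SD, n = 3 each). The difference of 1.03 was the largest of the 7 genes, with a 95% interval from -0.29 to 2.34 (limma, adjusted p = 0.738), and was 0.19 without probiotic sample 2. The other Dnajb1 probe set, 1383302_at, had 778.1, 5088 and 992.4 in the probiotic samples, against 1016, 1594 and 1074 in the high-fat samples, with a log2 difference of 0.38. It was again highest in probiotic sample 2, and it had the opposite sign without that sample, at -0.45.

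Hspb1 encodes HSP27, a small heat shock protein that binds unfolding proteins without using ATP. Its only probe set, 1367577_at, had intensities of 1850, 10152.5 and 1352 in the probiotic samples, against 1368, 3388 and 1798 in the high-fat samples. High-fat sample 2 was second to probiotic sample 2, and the lowest array was probiotic sample 3. Normalized log2 means were 11.54 ± 1.58 in probiotic and 11.01 ± 0.71 in high-fat livers (SD, n = 3 each). The difference was 0.53, with a 95% interval from -0.98 to 2.04 (limma, adjusted p = 0.865), and it was -0.37 without probiotic sample 2.

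**Figure D1:**
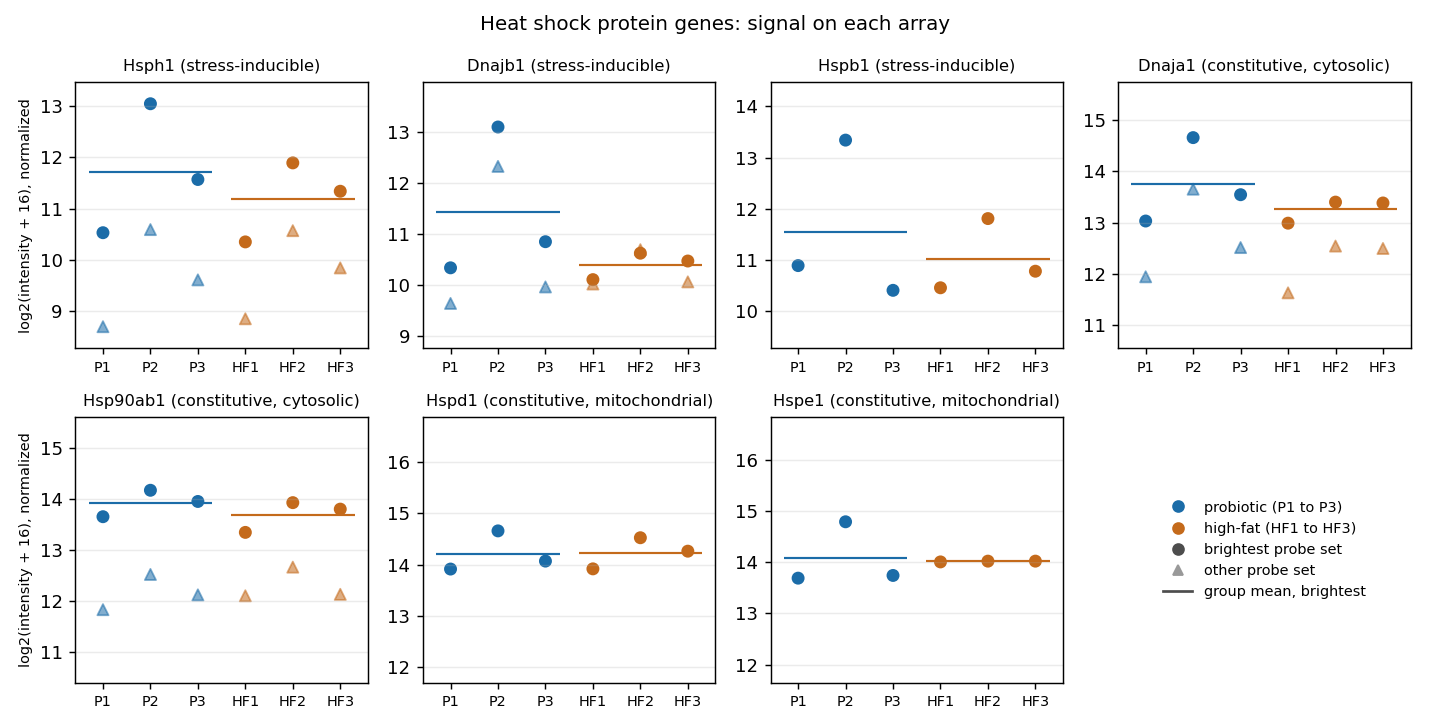
Normalized log2(intensity + 16) of the 7 heat shock protein genes on each array, with probiotic samples (P1 to P3) left of high-fat samples (HF1 to HF3), brightest probe sets as circles, others as triangles and group means of the brightest as lines. Every panel spans the same number of log2 units; the brightest probe set of every gene is highest in P2, by the widest margins in Dnajb1 and Hspb1.

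Of the constitutive cytosolic genes, Dnaja1 encodes an HSP40, a cochaperone of HSP70. Probe set 1398819_at had intensities of 8285, 23947 and 11701 in the probiotic samples, against 7987, 11166 and 10837.5 in the high-fat samples. Probiotic sample 2 was 2.05 times as bright as the next array, while sample 1 of either group was lowest. The log2 means were 13.75 ± 0.83 in probiotic and 13.26 ± 0.23 in high-fat livers (SD, n = 3 each), a difference of 0.49 with a 95% interval from -0.30 to 1.27 (limma, adjusted p = 0.766). It was 0.03 without probiotic sample 2. The other Dnaja1 probe set gave 0.48 with all samples and 0.00819 without that one. Dnaja1 was thus highest on the same array as the stress-inducible genes, at a smaller amplitude.

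Hsp90ab1 encodes HSP90 beta, the constitutive cytosolic HSP90 that matures kinases and steroid receptors. Probe set 1375336_at had intensities of 12889, 17237 and 15385 in the probiotic samples, against 10366.5, 16521 and 14801 in the high-fat samples, so that probiotic sample 2 exceeded the next array by only 1.04 times. Its log2 means were 13.93 ± 0.26 in probiotic and 13.69 ± 0.31 in high-fat livers (SD, n = 3 each). The difference of 0.23 had the narrowest 95% interval among the brightest probe sets, from -0.20 to 0.67 (limma, adjusted p = 0.793), and was 0.11 without probiotic sample 2. It was lowest, at 0.0653, when high-fat sample 1 was left out, and highest, at 0.365, when probiotic sample 1 was. The dimmer probe set 1375335_at was the only one of the 11 with its highest normalized value in high-fat sample 2, and its difference was -0.14.

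The mitochondrial pair had the smallest differences of the 7 genes. Hspd1, the HSP60 chaperonin that encloses imported proteins, had intensities of 15609, 23867.5 and 16951 in the probiotic samples, against 15169, 26118 and 19365 in the high-fat samples (probe set 1386894_at). As deposited, its highest value was in high-fat sample 2, and after quantile normalization in probiotic sample 2. The log2 difference was -0.02, with a 95% interval from -0.52 to 0.47 (limma, adjusted p = 0.987). Hspe1, the HSP10 lid of the same chaperonin, had 13119, 26346 and 13571 in the probiotic samples, against 15937, 17778 and 17032 in the high-fat samples (probe set 1386898_at). The high-fat samples lay close together, while the probiotic samples lay on both sides of them. The log2 difference was 0.06, with a 95% interval from -0.53 to 0.65 (limma, adjusted p = 0.972). Without probiotic sample 2 the Hspe1 difference was -0.31, with a 95% interval from -0.59 to -0.02 and an adjusted p of 0.91 in limma (unadjusted p = 0.0362). The difference without that sample was -0.24 for Hspd1.

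**Figure D2:**
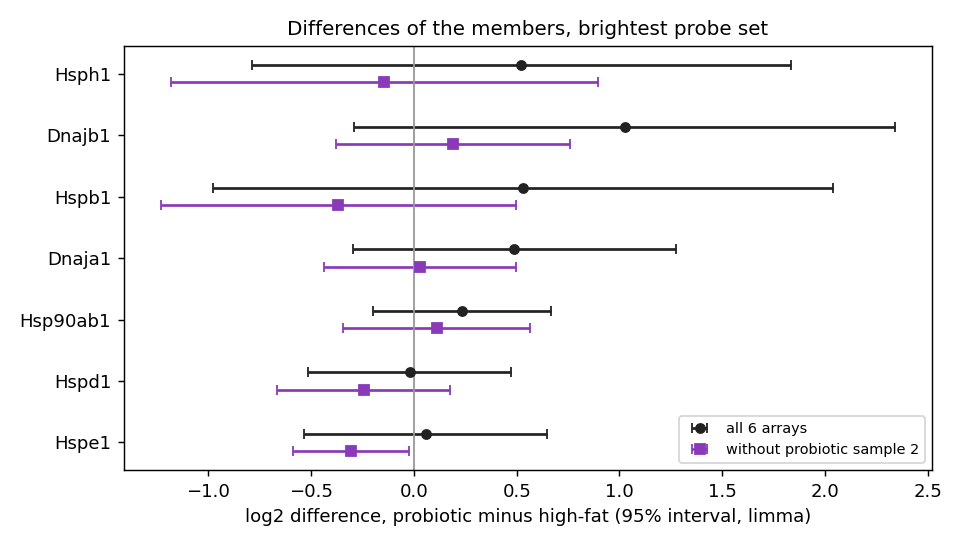
Log2 difference, probiotic minus high-fat, of the brightest probe set of each gene with its 95% interval from limma, for all 6 arrays (black circles) and without probiotic sample 2 (purple squares). With all arrays each interval spans 0 and the 3 stress-inducible genes at the top have the widest; without the sample, the Hspe1 interval alone lies below 0, at an adjusted p of 0.91.

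Hsph1, Dnajb1, Dnaja1 and Hsp90ab1 had 2 probe sets each, and in all of them the brighter one gave the higher difference. For Hsph1 the log2 gap between brighter and dimmer probe set was 1.839, 2.462 and 1.964 in the probiotic samples, against 1.504, 1.326 and 1.5 in the high-fat samples. For Dnajb1 the gap was 0.70, 0.77 and 0.89 in the probiotic samples, against 0.09, -0.07 and 0.41 in the high-fat samples. In both genes the gaps did not overlap between the groups. For Hsp90ab1 (1.65 to 1.83 in probiotic, 1.24 to 1.67 in high-fat samples) and Dnaja1 (1.01 to 1.09 in probiotic, 0.86 to 1.36 in high-fat samples) they did. Of all single probe sets tested, 12.7% were free of overlap, and the share among all pairs of probe sets was not computed. Control probe sets at both ends of the Actb transcript gave a 3' minus 5' gap, which is larger where transcripts are shorter. It was 2.08, 3.07 and 2.39 in the probiotic samples, against 1.95, 1.48 and 1.97 in the high-fat samples on the log2 scale (exact two-sided permutation p = 0.1, the smallest that 3 against 3 allow). For Gapdh it was 0.667, 1.577 and 1.272 in the probiotic samples, against 0.533, 0.496 and 0.754 in the high-fat samples (exact permutation p = 0.2). Both gaps were widest in probiotic sample 2, the array with the highest heat shock signals. With the Actb gap as a term in the fit, the differences were -0.492 for Hsph1, -0.436 for Dnajb1, -0.581 for Hspb1, -0.346 for Dnaja1 and -0.59 for Hspe1, all opposite in sign to those without it and none past the test (limma, adjusted p = 0.999 for each). Because the Actb gap did not overlap between the groups, gap and group cannot be told apart with these arrays, and these signs decide nothing.

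Set against each other as classes, the stress-inducible genes varied more than the constitutive ones, and no group difference stood out from the spread. Since levels of different probe sets cannot be compared, each gene was expressed as its log2 deviation from its own mean over the 6 arrays, and deviations were averaged within a class. The stress-inducible class lay at -0.63, 1.95 and -0.28 in probiotic samples 1, 2 and 3, against -0.91, 0.23 and -0.35 in high-fat samples 1, 2 and 3. The constitutive class lay at -0.32, 0.68 and -0.07 in the probiotic samples, against -0.33, 0.07 and -0.03 in the high-fat samples. Both classes had their highest value in probiotic sample 2, their second highest in high-fat sample 2, and their lowest in sample 1 of the high-fat group. The stress-inducible minus constitutive deviation averaged 0.25 ± 0.88 in probiotic and -0.25 ± 0.37 in high-fat livers (SD, n = 3 each). The group difference of 0.50 was smaller than the pooled SD of 0.678, and it was -0.0046 without probiotic sample 2. Fitting the Actb gap alongside the groups gave -0.215, a value in which gap and group cannot be told apart. No p is given for this average over chosen genes.

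**Figure D3:**
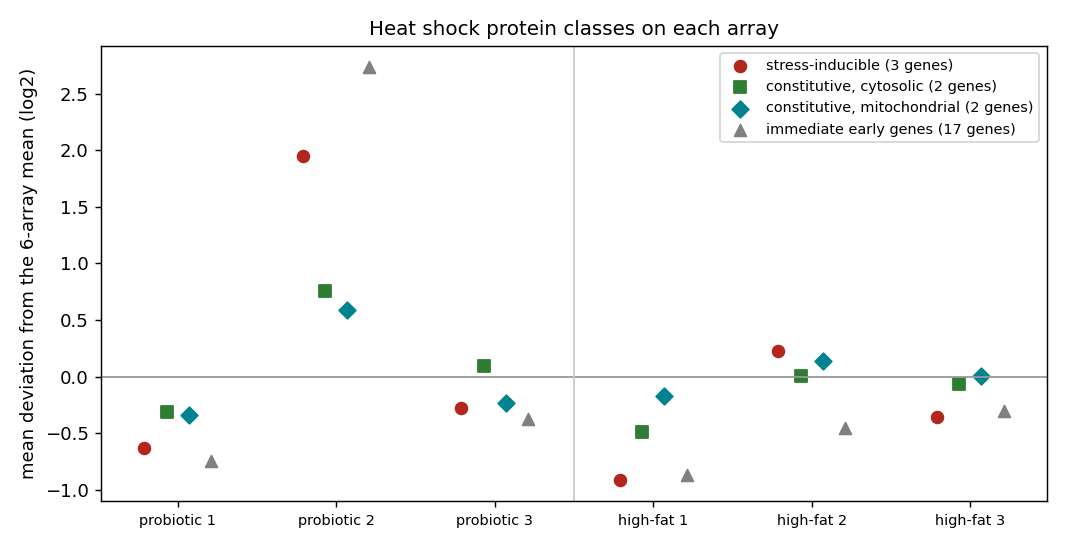
Mean log2 deviation from the 6-array mean of the stress-inducible, constitutive cytosolic and constitutive mitochondrial members and of 17 immediate early genes on each array, probiotic samples left of high-fat samples. In probiotic sample 2 the stress-inducible class reaches 1.95 and the immediate early genes 2.74; in high-fat sample 2 the immediate early genes lie at -0.46 and the stress-inducible class at 0.23.

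On the array of probiotic sample 2 the deviations of the brightest probe sets were higher in the stress-inducible class, but this did not hold for every probe set. They were 1.60 for Hsph1, 2.18 for Dnajb1 and 2.06 for Hspb1 among the brightest probe sets of the stress-inducible genes, and 1.16 for Dnaja1, 0.36 for Hsp90ab1, 0.44 for Hspd1 and 0.75 for Hspe1 among the constitutive ones. The second Hsph1 probe set lay at 0.90 and the Hsp90aa1 probe sets with 2 symbols at 1.04 and 1.38, while the second Dnaja1 probe set lay at 1.19. The other further probe sets kept the order of the classes. The second Dnajb1 probe set lay at 1.87 and the shared Hspa1b one at 4.425, while the second Hsp90ab1 probe set lay at 0.29 and the shared Hspa8 one at 0.64. Only 57 of the 18625 probe sets tested (0.306%) deviated upward at least as far as Dnajb1 on that array, and 68 (0.365%) as far as Hspb1. By contrast 3738 (20.1%) reached the deviation of Hsp90ab1 and 2996 (16.1%) that of Hspd1. Of the 11 member probe sets, 10 were highest in probiotic sample 2, against 20.4% of all probe sets tested. Without normalization between arrays 9 of 11 were highest there, against 18.1% of all. These positions describe one array chosen after its values were seen and are no comparison of the groups.

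The inducible HSP70 pair, Hspa1a and Hspa1b, was also highest in probiotic sample 2, with larger deviations there than any of the 11 member probe sets. Of the 7 genes tested on the list of HSP70 and HSP110 genes outside the members, Hspa1a was the only one highest in that sample (14.3%, against 20.4% of all probe sets tested). Probe set 1368247_at, annotated with both Hspa1b and Hspa1a, which encode near-identical inducible HSP70 proteins, had intensities of 161.1, 11241.6 and 288.6 in the probiotic samples, against 237.3, 517.7 and 252.7 in the high-fat samples. Probiotic sample 2 was 21.7 times as bright as the next array, high-fat sample 2, and the groups otherwise overlapped. Hspa1a also had a probe set of its own, 1370912_at, with 157.4, 15301.6 and 204.5 in the probiotic samples, against 159.1, 471.5 and 194.9 in the high-fat samples, and signal from its near-identical copy cannot be told apart from its own. On the normalized log2 scale its difference was 1.71 with a 95% interval from -1.52 to 4.94 (limma, adjusted p = 0.793), and it was -0.41 without probiotic sample 2. Only 2 of the probe sets tested, this one included, deviated upward at least as far on the array of probiotic sample 2.

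The remaining probe sets with 2 symbols cannot be given to a single gene. The one annotated with Hspa8, the constitutive HSP70, and with Haus8l2 had intensities of 12171, 34760 and 33658.5 in the probiotic samples, against 12141, 42655 and 30610 in the high-fat samples. As deposited, high-fat sample 2 was highest, probiotic samples 2 and 3 were nearly level, and sample 1 of both groups was far dimmer than the rest. The log2 difference was 0.08 (limma, adjusted p = 0.977). The brighter of those annotated with Hsp90aa1, the stress-inducible HSP90 alpha, and its pseudogene had 8562, 30617 and 17645 in the probiotic samples, against 9934, 23081 and 18725 in the high-fat samples. Its log2 difference was 0.15 and that of the dimmer one 0.16 (limma, adjusted p = 0.957 and 0.964). All 4 probe sets with 2 symbols had their highest normalized value in probiotic sample 2 and their lowest in probiotic sample 1.

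**Figure D4:**
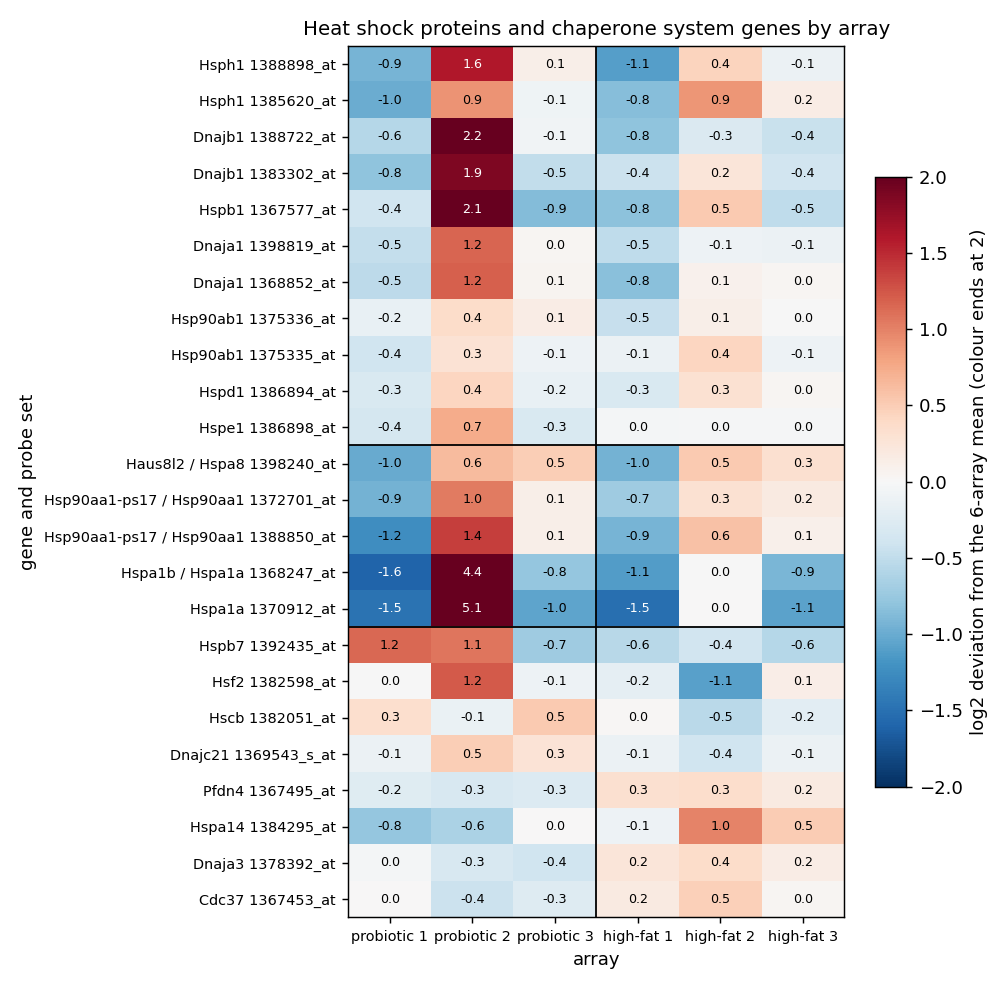
Log2 deviation of each probe set from its mean over the 6 arrays, probiotic samples left of high-fat samples, for the 11 member probe sets (top), the probe sets with 2 symbols and Hspa1a (middle) and the chaperone system genes of smallest p (bottom). The column of probiotic sample 2 is positive in the whole top and middle blocks, up to 5.10 for Hspa1a, and mixed in the bottom block.

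Other genes of the chaperone system were read from a list of 84 genes, of which 73 were tested. Of these 32 were higher and 41 lower in the probiotic group, with a median log2 difference of -0.03, and 0 passed the adjusted test. At an unadjusted p under 0.05 in limma 0 were higher, against 2.99% of all probe sets, and 5 were lower (6.85% of the 73, against 3.86% of all). Higher genes, 50.5% of all probe sets tested, were 4 of 5 among the small heat shock genes, 7 of 12 among the HSP40 genes and 1 of 8 in the cytosolic chaperonin TRiC. TRiC folds actin and tubulin. The HSP90 cochaperones had 5 of 14 higher and the HSP70 cochaperones 3 of 9. Without probiotic sample 2, 23 of the 73 were higher, against 51.9% of all probe sets tested.

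The 4 genes of smallest p in each direction kept that direction when probiotic sample 2 was left out. They were chosen by their p over all arrays, and the fit without that sample reuses the others. Kept directions were therefore likely in advance and are no independent support. Pfdn4, a subunit of prefoldin, which hands nascent chains to TRiC, had log2 signals of 9.46, 9.38 and 9.42 in the probiotic samples, against 10.02, 10.05 and 9.87 in the high-fat samples. The groups did not overlap, and the difference was -0.56 (limma, adjusted p = 0.726). Dnaja3, a mitochondrial HSP40, had a difference of -0.50, and Cdc37, which brings kinases to HSP90, one of -0.46, both also without overlap and at an adjusted p of 0.726. Hspa14 had -0.93 with overlapping groups. Without probiotic sample 2 these differences were -0.54 for Pfdn4, -0.47 for Dnaja3, -0.35 for Cdc37 and -0.84 for Hspa14. The higher genes of smallest p were the small heat shock gene Hspb7 (1.01), heat shock factor 2, Hsf2 (0.75), the mitochondrial iron-sulfur cochaperone Hscb (0.48) and the HSP40 Dnajc21 (0.44), at adjusted p from 0.732 to 0.738. Only Dnajc21 among them was free of overlap. Of all probe sets tested, 12.7% were free of overlap, and a choice by smallest p favours such genes. Without probiotic sample 2 these differences were 0.73 for Hspb7, 0.33 for Hsf2, 0.66 for Hscb and 0.29 for Dnajc21. Hsf1 itself had log2 signals of 7.84, 8.48 and 7.48 in the probiotic samples, against 7.96, 7.76 and 7.93 in the high-fat samples, a difference of 0.05.

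Of the 73 genes, 28 (38.4%) were highest in probiotic sample 2, against 20.4% of all probe sets tested. After Hspa1a, the largest upward deviations there, chosen after their values were seen, were those of Bag3, an HSP70 cochaperone induced by heat shock factor 1 (1.39), its small heat shock partner Hspb8 (1.36), and the HSP40 gene Dnajb4 (1.29). Their group differences were 0.24, 0.40 and 0.36, and without probiotic sample 2 they were -0.39, -0.18 and -0.19. The sign of all 3 was thus opposite without that array, as it was for Hsph1, Hspb1 and Hspe1.

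Some markers of other kinds were also highest on the same array, while others were not. All 17 immediate early genes tested, which respond to stimulation within minutes, were highest in probiotic sample 2, against 20.4% of all probe sets tested. The list was chosen because these genes had moved with an array in earlier results of these data, so this count is no independent support. Fosb, Fosl2 and Nr4a1 fell below the filter on low signal when probiotic sample 2 was left out. The mean deviation of the immediate early genes was 2.74 in probiotic sample 2, between -0.75 and -0.37 in the other probiotic samples and between -0.87 and -0.30 in the high-fat samples. Blood markers (5 of 5 tested) had summed intensities of 30427.3 to 52844.6 in the probiotic group, highest in sample 2. In the high-fat group the blood sums were 19747.7 to 26100.2, without overlap. Endothelial markers (5 of 6 tested) summed to 5061 to 9167 in the probiotic group, highest in sample 2, and 5570 to 6738 in the high-fat group. Kupffer cell and macrophage markers (9 of 10 tested) had sums of 11452 to 14491 in the probiotic group, lowest in sample 2. Their sums were 14064 to 19243 in the high-fat group. Neutrophil markers (5 of 6 on the array, 4 of them tested) had sums of 555.4 to 759.6 in the probiotic group and 1042.5 to 1393 in the high-fat group, without overlap. Hepatocyte markers (6 of 7 tested) had sums of 275118.4 to 310753.4 in the probiotic group and 250218.3 to 492862.7 in the high-fat group. The lists of stellate cells and cholangiocytes overlapped between groups, and 0 of 4 skeletal muscle markers passed the filter on low signal. The part of these markers in the heat shock signals was not tested.

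The genes outside the members whose profile was nearest to that of the stress-inducible class, by the mean absolute distance of log2 deviations over the 6 arrays, were Zfp36 (0.135), Rassf1 (0.143), Spsb1 (0.221), Ankrd37 (0.253), Slc38a2 (0.259) and Cpt1b (0.269), out of 10566 genes with a median distance of 0.778. Zfp36, which speeds the decay of mRNAs with AU-rich elements, is also on the list of immediate early genes. Its deviations were -0.59, 1.59 and -0.32 in the probiotic samples, against -0.87, 0.34 and -0.15 in the high-fat samples. The stress-inducible genes themselves lay at 0.202 (Dnajb1), 0.249 (Hspb1) and 0.28 (Hsph1) from their own mean, and of the constitutive genes Dnaja1 was nearest, at 0.371. All 6 arrays are shared by these profiles. Each of the 6 genes had its highest deviation in probiotic sample 2, which follows from their choice by distance to a class highest there.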

How the data were processed

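Biotin-labelled cRNA from 8 ug of liver RNA was put on 1-colour Affymetrix arrays, per the labels' protocols. What the authors deposited is 1 linear intensity per probe set and array, and the software behind it is not given in the sources used here. On each array the mean without the top and bottom 2% was 500. Array medians of log2(intensity + 16) spanned 0.617, above the limit of 0.2, so the log2 values were quantile normalized, which removes overall shifts. The 57 control probe sets and those under the 40th percentile of mean signal were left out, which left 18625. Groups followed the titles. Symbols came from the platform annotation, and 20764 of 20832 probe sets with 1 symbol matched RefSeq. A fold on this scale understates changes of dim probe sets.

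Differences are probiotic minus high-fat from limma 3.58.1 in R 4.3.3 (lmFit, eBayes with trend, two-sided, Benjamini-Hochberg over all probe sets tested). Each gene was read at its brightest probe set. Named genes were all members, the 4 chaperone system genes of smallest p in each direction and the 6 nearest profiles. Hspa1a, Hsf1, Bag3, Hspb8 and Dnajb4 were named outside this rule, after their values were seen. Members, classes and lists were chosen with earlier results of these data known. The script was tested on simulated data. Alternatives covered normalization, pseudocount, filter, variance model, array weights, block, covariate, choice of probe set and class, and each sample left out. Figures used matplotlib 3.10.9.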

Additional observations from a re-analysis of the deposited data

How the results depend on the processing

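Over 143 refits of single genes (the 7 members and Hspa1a), 127 kept the direction and 0 passed the threshold, at adjusted p from 0.437 to 1. Part of this agreement was fixed in advance. The settings of filter, variance trend and replicate block cannot change a difference, only its p. The mean over probe sets cannot change it for Hspb1, Hspd1 and Hspe1, which had a single probe set. With the Actb gap as covariate, differences were -0.492 for Hsph1, -0.346 for Dnaja1, -0.436 for Dnajb1, -0.581 for Hspb1, -0.59 for Hspe1 and -1.7 for Hspa1a, and the stress-inducible minus constitutive difference was -0.215. That gap did not overlap between the groups, so gap and group cannot be told apart in this fit. Hspe1 also turned without normalization between arrays (-0.0136), with array weights (-0.0964) and without both sample 2 arrays (-0.297). With each sample left out in turn, the range was -0.145 to 1.12 for Hsph1, -0.367 to 1.1 for Hspb1, -0.244 to 0.127 for Hspd1, -0.306 to 0.25 for Hspe1, -0.407 to 2.88 for Hspa1a, 0.0289 to 0.842 for Dnaja1 and 0.191 to 1.57 for Dnajb1, lowest without probiotic sample 2 in each. For Hsp90ab1 it was 0.0653 (without high-fat sample 1) to 0.365. Hspd1 was 0.0507 without probiotic sample 3 and 0.123 when high-fat sample 2 was left out. The class difference ranged from -0.0046 to 0.786, and was 0.551 with the probe sets of 2 symbols included and -0.106 when probiotic sample 2 was then left out, both added after seeing the data. The number of probe sets called was 4, and 3 to 12 with a sample left out (12 without probiotic sample 1, 9 without high-fat sample 1). Of the chaperone list 5 were lower at an unadjusted p under 0.05 and 0 at the adjusted threshold. The causes of these changes were not tested. With the replicate number as a block 4 probe sets were called, the class difference stayed at 0.504, and no call of a member changed. Deviations of same-numbered samples correlated at 0.144, 0.027 and 0.077, and probiotic sample 2 correlated best with high-fat sample 3 (0.067), so the numbers were not taken to pair samples. With 3 arrays a group, differences within the intervals given were not excluded.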
